A study of Mus musculus with 12 samples.

Results

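The depot effect averaged over both stages is the difference between adipogenic cells of thoracic aortic perivascular adipose tissue (PVAT) and of inguinal white adipose tissue (IWAT) once progenitors and preadipocytes are given equal weight. It used all 12 libraries of the series, 6 from PVAT and 6 from IWAT. The PVAT libraries were 3 of progenitors and 3 of preadipocytes, and the IWAT libraries were 3 of DPP4+ progenitors and 3 of ICAM1+ preadipocytes, all from wild-type CD-1 pups of both sexes at 3 days of age. Cells were freed with collagenase D and dispase II, sorted by flow cytometry and profiled by poly(A)-selected SMART-Seq v4 RNA sequencing. A library was made from pooled mice, and same-numbered replicates came from the same pools, so p-values measure the spread between pools and sorts. No source used here gives the sort markers of the PVAT cells, so depot and sort gate cannot be told apart. The comparison took the mean of the PVAT progenitor and PVAT preadipocyte groups against the mean of the IWAT DPP4+ and IWAT ICAM1+ groups, in a model with 1 mean per group.

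Fat depots arise from mesenchyme at different positions along the body, and fibroblasts keep a record of that position in the Hox genes, clustered transcription factor genes whose order along the chromosome follows the head-to-tail axis. Thoracic perivascular fat is thermogenic in mice and carries mitochondria rich in UCP1, the uncoupling protein, whereas inguinal fat is white and can form beige adipocytes. In inguinal fat, DPP4+ cells are interstitial progenitors that give rise to ICAM1+ committed preadipocytes.

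A gene was counted as separating the depots alike at both stages when it met 5 conditions. It was called for the depot effect, it was called in the same direction at each stage, and all 3 PVAT libraries lay on one side of all 3 IWAT libraries at each stage. The averaged log2 fold change was at least 1 in size, and the changes at the progenitor and preadipocyte stages were less than 1 apart. Calls were made at an adjusted p under 0.05 by edgeR's quasi-likelihood test with Benjamini-Hochberg adjustment over 18855 tested genes. Levels are CPM (read counts relative to library size, scaled by edgeR's TMM factors), and fold changes are log2 of PVAT over IWAT with their standard error (SE). CPM is not corrected for gene length, so levels were compared between samples and not between genes.

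PVAT libraries held 15614628 to 18191251 counts and IWAT libraries 15692839 to 25674461. TMM factors were 1.03 to 1.22 in PVAT and 0.744 to 1.04 in IWAT. Col3a1, a fibrillar collagen gene, took 1.93 to 11.3% of counts in PVAT libraries and 9.88 to 16.9% in IWAT libraries. The first principal component of the 500 most variable genes (68.5% of their variance) put the 6 PVAT libraries at 15.78 or above and the 6 IWAT libraries at -15.71 or below. Pdgfra, a receptor gene that marks adipogenic fibroblasts, was present in every library, at 118 to 716 CPM in PVAT and 450 to 755 CPM in IWAT. Replicate 1 of both PVAT populations lay farthest from its group, and replicate 2 of the IWAT DPP4+ cells had the highest Ptprc, the leukocyte gene CD45, at 15.4 CPM. Without these 3 libraries 5033 genes were called higher in PVAT and 4950 lower.

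The depots differed at 9160 of 18855 tested genes (48.6%). Of these, 4947 (26.2% of all tested) were higher in PVAT and 4213 (22.3%) lower, so 54.0% of calls were higher in PVAT. With library totals in place of TMM as the scale, 8255 were higher and 2422 lower, 77.3% higher, and the median over all genes was 0.41 in place of 0.08. At the progenitor stage alone 4687 genes were called (24.9%), and at the preadipocyte stage alone 8467 (44.9%; 23.5% higher and 21.4% lower). The 2 stage comparisons use different libraries from the same pools. They shared 2629 genes called in the same direction, which was 56.1% of the progenitor calls and 31.0% of the preadipocyte calls. Another 314 genes were called at both stages in opposite directions, and the depot by stage interaction was called for 2834 genes (15.0%; 6.37% with a larger value in preadipocytes and 8.66% with a smaller one).

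Genes alike at both stages numbered 1356 (7.19% of all tested), 613 higher in PVAT (3.25%) and 743 lower (3.94%). Their median averaged change was 1.73 for those higher and -1.60 for those lower. The 12 libraries separated fully by depot, with every PVAT library on one side of every IWAT library, at 433 of the higher and 496 of the lower genes. Over all tested genes this held for 2527 (13.4%). The rule itself asks for separation at each stage, so the larger share among alike genes is no finding. The interaction was called for 72 of the 1356, among them Hoxa7, Tnfaip6, Atf3 and Tnxb. The stage effect was taken from the same 12 libraries, so no overlap between depot and stage calls is given. Its median (preadipocytes minus progenitors, log2) was 0.80 for the higher genes, -0.81 for the lower genes and 0.03 for all tested genes. Protein-coding genes made up 87.4% of the higher, 86.0% of the lower and 77.5% of all tested genes.

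**Figure D1:**
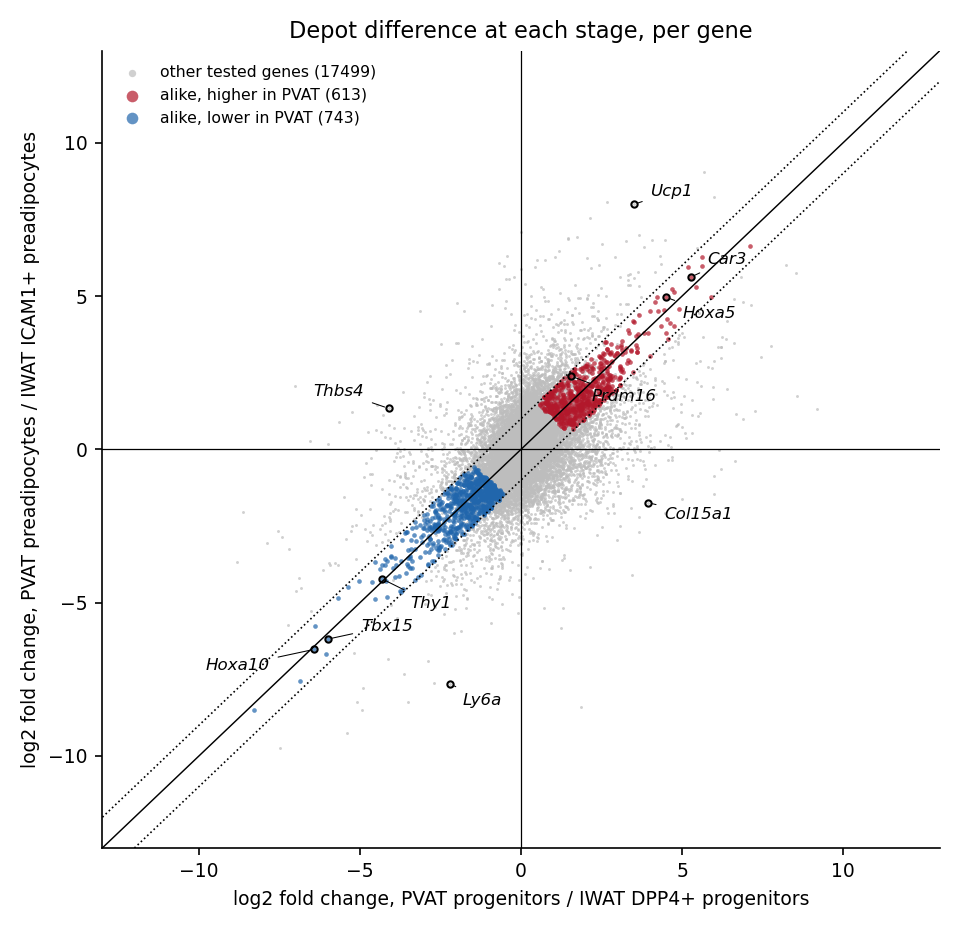
Log2 fold change of PVAT over IWAT for each tested gene at the progenitor stage (horizontal) and at the preadipocyte stage (vertical). Red and blue points are the 613 and 743 genes alike at both stages, grey points the other genes, the solid line equal change and the dotted lines a stage difference of 1; Ucp1, Ly6a, Col15a1 and Thbs4 lie outside the dotted lines.

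PVAT cells had more RNA of head-ward Hox genes and less of tail-ward Hox genes than IWAT cells. Of 11 tested genes of paralogue groups 1 to 5, 11 were called higher in PVAT, with a median log2 change of 1.59. Of 7 genes of groups 6 to 8, 4 were higher and 2 lower, with a median of 1.19. Of 6 genes of groups 9 to 13, none was higher and 5 were lower, with a median of -2.94. The counts and medians of these and later lists stand beside 26.2% called higher, 22.3% lower and a median of 0.08 for all tested genes. The alike genes were Hoxa5, Hoxb2, Hoxb5, Hoxc5, Hoxb6, Hoxa7 and Hoxb7 on the higher side and Hoxa9 and Hoxa10 on the lower side. Hoxb2 kept this status in 1 of the 12 fits that left out a library.

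The HoxA cluster on chromosome 6 held both directions. The promoters of Hoxa5, Hoxa7, Hoxa9 and Hoxa10 are shown because the depot difference changes sign between Hoxa7 and Hoxa9. The sequences are from RefSeq on GRCm38.p6, run from 250 bases before to 50 bases after the annotated start, and are written 5′ to 3′ on the gene's own strand. Capitals mark AGGTCA, the half-site of many nuclear receptors, searched on both strands.
Hoxa5, chr6:52204538-52204837, minus strand: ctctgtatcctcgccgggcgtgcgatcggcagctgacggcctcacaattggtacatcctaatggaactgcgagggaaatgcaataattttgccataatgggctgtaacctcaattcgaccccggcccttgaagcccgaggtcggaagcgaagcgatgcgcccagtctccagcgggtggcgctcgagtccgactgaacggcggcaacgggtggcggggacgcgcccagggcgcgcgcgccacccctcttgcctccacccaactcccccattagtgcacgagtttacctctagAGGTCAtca
Hoxa7, chr6:52218524-52218823, minus strand: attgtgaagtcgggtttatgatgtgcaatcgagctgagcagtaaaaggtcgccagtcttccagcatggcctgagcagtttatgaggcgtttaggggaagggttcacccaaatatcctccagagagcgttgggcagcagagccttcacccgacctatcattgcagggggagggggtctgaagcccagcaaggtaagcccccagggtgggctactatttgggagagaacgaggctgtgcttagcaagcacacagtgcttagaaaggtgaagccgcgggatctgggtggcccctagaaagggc
Hoxa9, chr6:52227321-52227620, minus strand: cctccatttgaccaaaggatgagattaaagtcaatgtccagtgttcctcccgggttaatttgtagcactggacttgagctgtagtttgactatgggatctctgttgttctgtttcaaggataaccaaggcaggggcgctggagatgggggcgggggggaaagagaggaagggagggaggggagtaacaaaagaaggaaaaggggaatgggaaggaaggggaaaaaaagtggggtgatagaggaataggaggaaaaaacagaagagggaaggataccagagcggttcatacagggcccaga
Hoxa10, first entry, chr6:52240805-52241104, minus strand: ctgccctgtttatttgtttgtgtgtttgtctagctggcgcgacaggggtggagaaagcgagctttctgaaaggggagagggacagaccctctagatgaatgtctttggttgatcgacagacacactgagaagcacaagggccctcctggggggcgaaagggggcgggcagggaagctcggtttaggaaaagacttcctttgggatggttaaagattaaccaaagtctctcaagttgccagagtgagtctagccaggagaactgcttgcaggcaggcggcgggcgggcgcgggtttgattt
Hoxa10, second entry, chr6:52234890-52235189, minus strand: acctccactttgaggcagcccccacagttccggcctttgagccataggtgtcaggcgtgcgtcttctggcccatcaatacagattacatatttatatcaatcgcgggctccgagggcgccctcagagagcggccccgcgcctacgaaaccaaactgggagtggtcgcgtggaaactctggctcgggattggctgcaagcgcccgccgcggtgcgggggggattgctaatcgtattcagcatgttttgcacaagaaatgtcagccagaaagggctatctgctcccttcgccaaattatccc
The motif occurred once in these 5 windows, at the end of the Hoxa5 window, and in 16.26% of 32851 promoter windows of the same length. GC content was 61.7% for Hoxa5, 55.7% for Hoxa7, 49.7% for Hoxa9, and 54.3% and 57.3% for the Hoxa10 entries.

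Hoxa5 (ENSMUSG00000038253, chr6:52201754-52204587 in mm10), a regulator of thoracic patterning, was found at 36.4, 7.08 and 4.98 CPM in PVAT progenitors and 29.9, 43.1 and 53.0 CPM in PVAT preadipocytes, against 1.0, 0.607 and 0.492 CPM in IWAT DPP4+ progenitors and 1.23, 1.59 and 1.18 CPM in IWAT ICAM1+ preadipocytes. Every PVAT library was above every IWAT library, and PVAT progenitor replicate 1 stood above the other two of its group. The averaged change was 4.73 ± 0.50 (adjusted p = 1.03e-05), with 4.50 at the progenitor and 4.96 at the preadipocyte stage. Without PVAT progenitor replicate 1 it was 3.99. Hoxa5 kept its alike status in 11 of the 12 fits that left out a library. Hoxa10 (chr6:52231197-52240854), which patterns the lumbar region and hindlimb, had 0.0576 to 0.413 CPM in PVAT, with a median of 0.377, against 23.5 to 28.9 CPM in IWAT, with a median of 26.5. Both stages lay close together within each depot. The change was -6.48 ± 0.29 (adjusted p = 1.03e-08), with -6.43 at the progenitor and -6.53 at the preadipocyte stage. Hoxa9, its neighbour, was lower in PVAT by a smaller step, -1.43 ± 0.13, at 7.77 to 15.8 CPM in PVAT and 19.9 to 35.1 CPM in IWAT. Hoxa7, next along the cluster, was higher in PVAT, 1.69 ± 0.12, at 16.7 to 33.5 CPM in PVAT and 6.17 to 8.73 CPM in IWAT.

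In the HoxB cluster on chromosome 11, a run of 4 consecutive tested genes (Hoxb7, Hoxb5os, Hoxb6 and Hoxb5, chr11:96286623-96306910) was alike and higher in PVAT. Hoxb5 had 4.45 to 9.56 CPM in PVAT, against 0.155 to 0.410 CPM in IWAT, a change of 4.40 ± 0.25. Hoxb6 changed by 2.21 ± 0.22 and Hoxb7 by 1.19 ± 0.14. Strand use in counting is not given here, so reads of the antisense gene Hoxb5os and of Hoxb5 and Hoxb6 cannot be told apart. In the HoxC cluster, Hoxc5 was higher in PVAT by 1.5 ± 0.14, Hoxc8 did not pass the test (0.20 ± 0.11, adjusted p = 0.133), and Hoxc10, a lumbar and hindlimb gene, had 0 to 0.103 CPM in PVAT against 13.1 to 22.6 CPM in IWAT. With library totals as the scale Hoxc8 was called, at 0.53. Hoxc10 was not counted as alike, and its PVAT preadipocyte level rested on 1 count, against 1267 in IWAT ICAM1+ preadipocytes. Hoxa2 and Hoxa3 were higher in PVAT at both stages but by unequal amounts, with 5.80 and 3.79 at the progenitor stage and 2.70 and 1.52 at the preadipocyte stage.

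**Figure D2:**
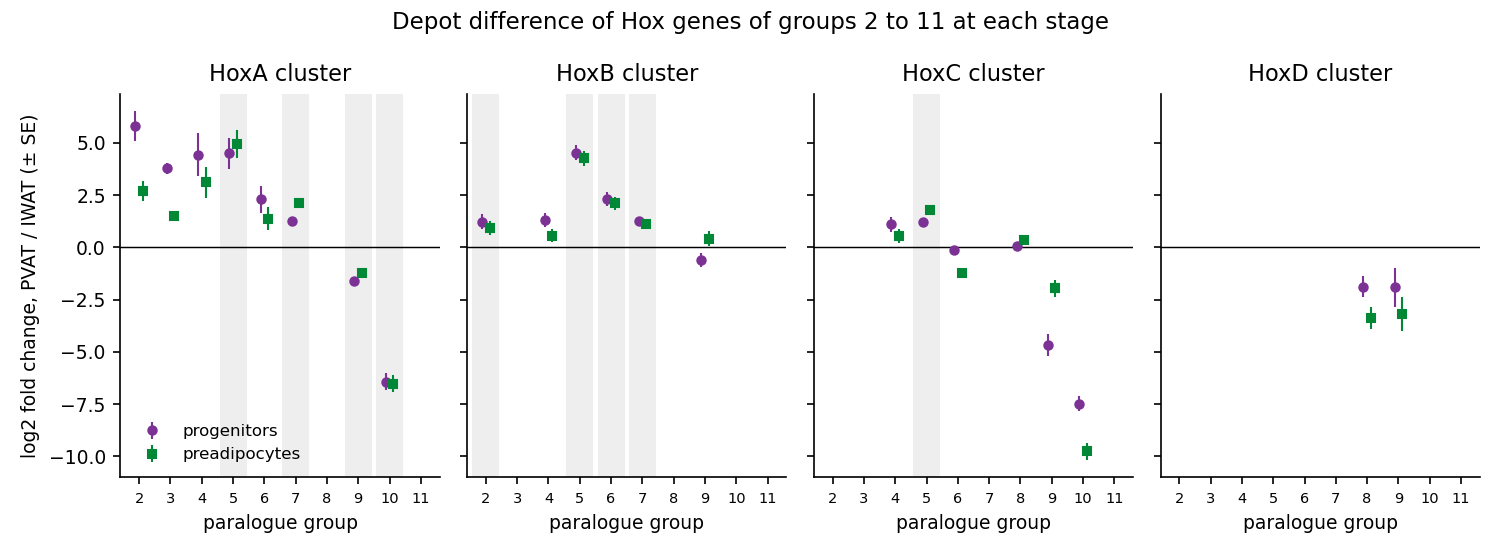
Log2 fold change of PVAT over IWAT (vertical, ± SE) by paralogue group (horizontal) for genes of paralogue groups 2 to 11 of each Hox cluster, with circles for progenitors and squares for preadipocytes. Grey bands mark genes alike at both stages: Hoxa5 and Hoxb5 lie above 4 and Hoxa10 below -6 at each stage, while the Hoxc10 points rest on near-zero PVAT counts.

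Transcription factors of limb and body wall mesenchyme were mostly lower in PVAT. Of 22 tested, 16 were called lower and 3 higher, with a median log2 change of -2.23, and 6 were alike on the lower side, Tbx15, Pitx1, Lmx1b, Tbx5 and Pax9 among them. Pax9 kept this status in 3 of the 12 fits that left out a library, and Pitx1 and Lmx1b in 7 each. Tbx15 (chr3:99240381-99354259), a T-box gene known for depot-restricted expression in subcutaneous fat, had 1.65, 0.979 and 1.62 CPM in PVAT progenitors and 1.82, 0.782 and 0.590 CPM in PVAT preadipocytes, against 87.4, 91.95 and 97.3 CPM in IWAT DPP4+ progenitors and 79.0, 75.0 and 82.5 CPM in IWAT ICAM1+ preadipocytes. The depots did not overlap, and the 2 stages were near each other within each depot. The change was -6.10 ± 0.23 (adjusted p = 2.5e-09). Pitx1, a hindlimb identity gene, had 1 count over the 6 PVAT libraries (1 in progenitors and 0 in preadipocytes), against 188 over the 6 IWAT libraries, so whether its 2 stages were alike cannot be judged. Lmx1b had 3 counts in PVAT preadipocytes, against 46 in IWAT ICAM1+ preadipocytes, so its likeness between stages cannot be judged either. The neighbouring genes Tbx3 and Tbx5, both active in limb and heart development, formed a run on chromosome 5 with Gm43050. Tbx3 changed by -2.78 ± 0.15 and Tbx5 by -2.87 ± 0.22. Pax9 was chosen for naming after its values were seen.

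Among transcription factors of outflow tract and neural crest development, 9 of 18 were called higher in PVAT and 4 lower, with a median of 0.55. Foxc2, a forkhead gene of aortic arch and adipocyte biology, and Gata6, a zinc finger gene of the outflow tract, were alike and higher, and Tbx3 and Mef2c alike and lower. Gata6 had 97.4, 19 and 19.3 CPM in PVAT progenitors and 68.9, 55.2 and 59.0 CPM in PVAT preadipocytes, against 7.64, 8.35 and 8.20 CPM in IWAT DPP4+ progenitors and 17.9, 16.1 and 16.04 CPM in IWAT ICAM1+ preadipocytes. Every PVAT library was above every IWAT library, with the lowest PVAT library close to the highest IWAT library. Its change was 2.18 ± 0.36, and 1.54 without PVAT progenitor replicate 1. Foxc2 reached 1.08 to 14.7 CPM in PVAT and 0.0714 to 0.310 CPM in IWAT, a change of 4.94 ± 0.70, and 3.84 without the same library. Of the 12 fits that left out a library, Foxc2 was alike in 11 and Gata6 in 12. Mecom, a zinc finger gene, changed by 2.83 ± 0.29 and led a run of 4 alike genes on chromosome 3.

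The largest increases in PVAT among alike genes of at least 10 CPM belonged to Car3, Msln, Hpca, Hoxa5, Cytl1, Nnat, Epyc, Hp, Fndc5 and Gpm6a. Car3 (ENSMUSG00000027559, chr3:14863512-14872523), a carbonic anhydrase abundant in adipocytes, had 795, 911 and 898 CPM in PVAT progenitors and 3439, 8704 and 9738 CPM in PVAT preadipocytes, against 15.9, 31.2 and 20.01 CPM in IWAT DPP4+ progenitors and 178, 157 and 110 CPM in IWAT ICAM1+ preadipocytes. Preadipocytes were higher than progenitors in each depot, and PVAT progenitors were above IWAT preadipocytes. The depot change was 5.45 ± 0.30 (adjusted p = 4.36e-08), with 5.28 and 5.62 at the progenitor and preadipocyte stages. Nnat, the imprinted neuronatin gene, followed the same order of groups, with 32.2, 53.9 and 38.4 CPM in PVAT progenitors and 158, 474 and 354 CPM in PVAT preadipocytes, against 2.57, 2.43 and 1.89 CPM in IWAT DPP4+ progenitors and 13.5, 10.1 and 11.9 CPM in IWAT ICAM1+ preadipocytes. Its change was 4.48 ± 0.27 (adjusted p = 9.41e-08).

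Other leading genes also separated the depots at each stage. Hp, which encodes the haemoglobin-binding protein haptoglobin, had 30.4 to 48.9 CPM in PVAT, with a median of 38.8, against 0.929 to 4.02 CPM in IWAT, with a median of 2.73 (3.81 ± 0.27; stage changes of 3.82 and 3.80). Cytl1, a small secreted protein gene, had 8.002 to 18.2 CPM in PVAT and 0.271 to 1.0 CPM in IWAT (4.50 ± 0.33). Neither gene overlapped between depots. Hpca, a neuronal calcium sensor gene, had 4.06 to 18.4 CPM in PVAT and 0 to 0.581 CPM in IWAT (5.37 ± 0.44, and 6.19 without IWAT DPP4+ replicate 3). Fndc5, the irisin precursor gene, changed by 3.49 ± 0.52, and by 2.85 without PVAT progenitor replicate 1, where it had 26.6 CPM. It was alike in 11 of the 12 fits that left out a library. Epyc, a small leucine-rich proteoglycan gene, changed by 3.83 ± 0.21; 40.6% of its exon length overlaps Gm10754.

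Msln and Gpm6a are also markers of mesothelium, the lining of body cavities. Msln had 39.3, 71.5 and 61.0 CPM in PVAT progenitors and 10.6, 15.7 and 3.81 CPM in PVAT preadipocytes, against 1.0, 1.37 and 0.492 CPM in IWAT DPP4+ progenitors and 0.490, 0.155 and 0.360 CPM in IWAT ICAM1+ preadipocytes. All PVAT libraries were above all IWAT libraries, and the change was 5.42 ± 0.40 (adjusted p = 5.5e-07). Of 14 mesothelial markers 10 were called higher in PVAT and 3 lower, with a median log2 change of 3.77, and Lrrn4, Msln and Gpm6a were alike. Their summed level was 193.7 to 316.1 CPM in PVAT progenitors and 101.5 to 150.8 CPM in PVAT preadipocytes, against 46.77 to 54.93 CPM in IWAT DPP4+ progenitors and 108.7 to 120.9 CPM in IWAT ICAM1+ preadipocytes, and no marker was at 0 in all libraries of either depot. The part of mesothelial cells in these differences was not tested. In bulk libraries such as these, fewer cells of a type and less RNA per cell cannot be told apart.

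The largest decreases in PVAT under the same rule included those of Hoxa10, Tbx15, Ighm, Krtdap, Nova1, Thy1, Cxcl2, Mab21l1 and Adh7. Nova1 (chr12:46694517-46818929), which encodes an RNA-binding splicing regulator, had 9.24, 10.4 and 9.52 CPM in PVAT progenitors and 1.92, 3.42 and 3.81 CPM in PVAT preadipocytes, against 182, 169 and 178 CPM in IWAT DPP4+ progenitors and 78.0, 94.0 and 83.7 CPM in IWAT ICAM1+ preadipocytes. The depots were far apart at each stage, and progenitors were above preadipocytes in both. The change was -4.49 ± 0.15 (adjusted p = 1.47e-09). Thy1, a surface glycoprotein gene of fibroblasts and T cells, had 3.92, 6.16 and 4.33 CPM in PVAT progenitors and 2.31, 1.03 and 0.751 CPM in PVAT preadipocytes, against 95.9, 83.7 and 111 CPM in IWAT DPP4+ progenitors and 30.1, 24.8 and 22.1 CPM in IWAT ICAM1+ preadipocytes. It followed the same order, with a change of -4.28 ± 0.23.

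Adh7, an alcohol dehydrogenase gene able to oxidise retinol, had 0.197 to 1.32 CPM in PVAT and 6.005 to 23.6 CPM in IWAT (-4.14 ± 0.25). Mab21l1, a gene of eye and craniofacial development, had 0.0536 to 1.24 CPM in PVAT and 8.21 to 14.4 CPM in IWAT (-4.19 ± 0.27); 39.4% of its exon length overlaps Nbea. Neither gene overlapped between depots. Ighm, the immunoglobulin mu constant region, had 0.161 to 1.15 CPM in PVAT and 8.84 to 23.7 CPM in IWAT (-4.70 ± 0.24). Krtdap, a keratinocyte gene, had 0.197 to 12.8 CPM in PVAT and 8.63 to 420 CPM in IWAT (-4.68 ± 0.21), so the depots overlapped across stages while separating at each stage.

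**Figure D3:**
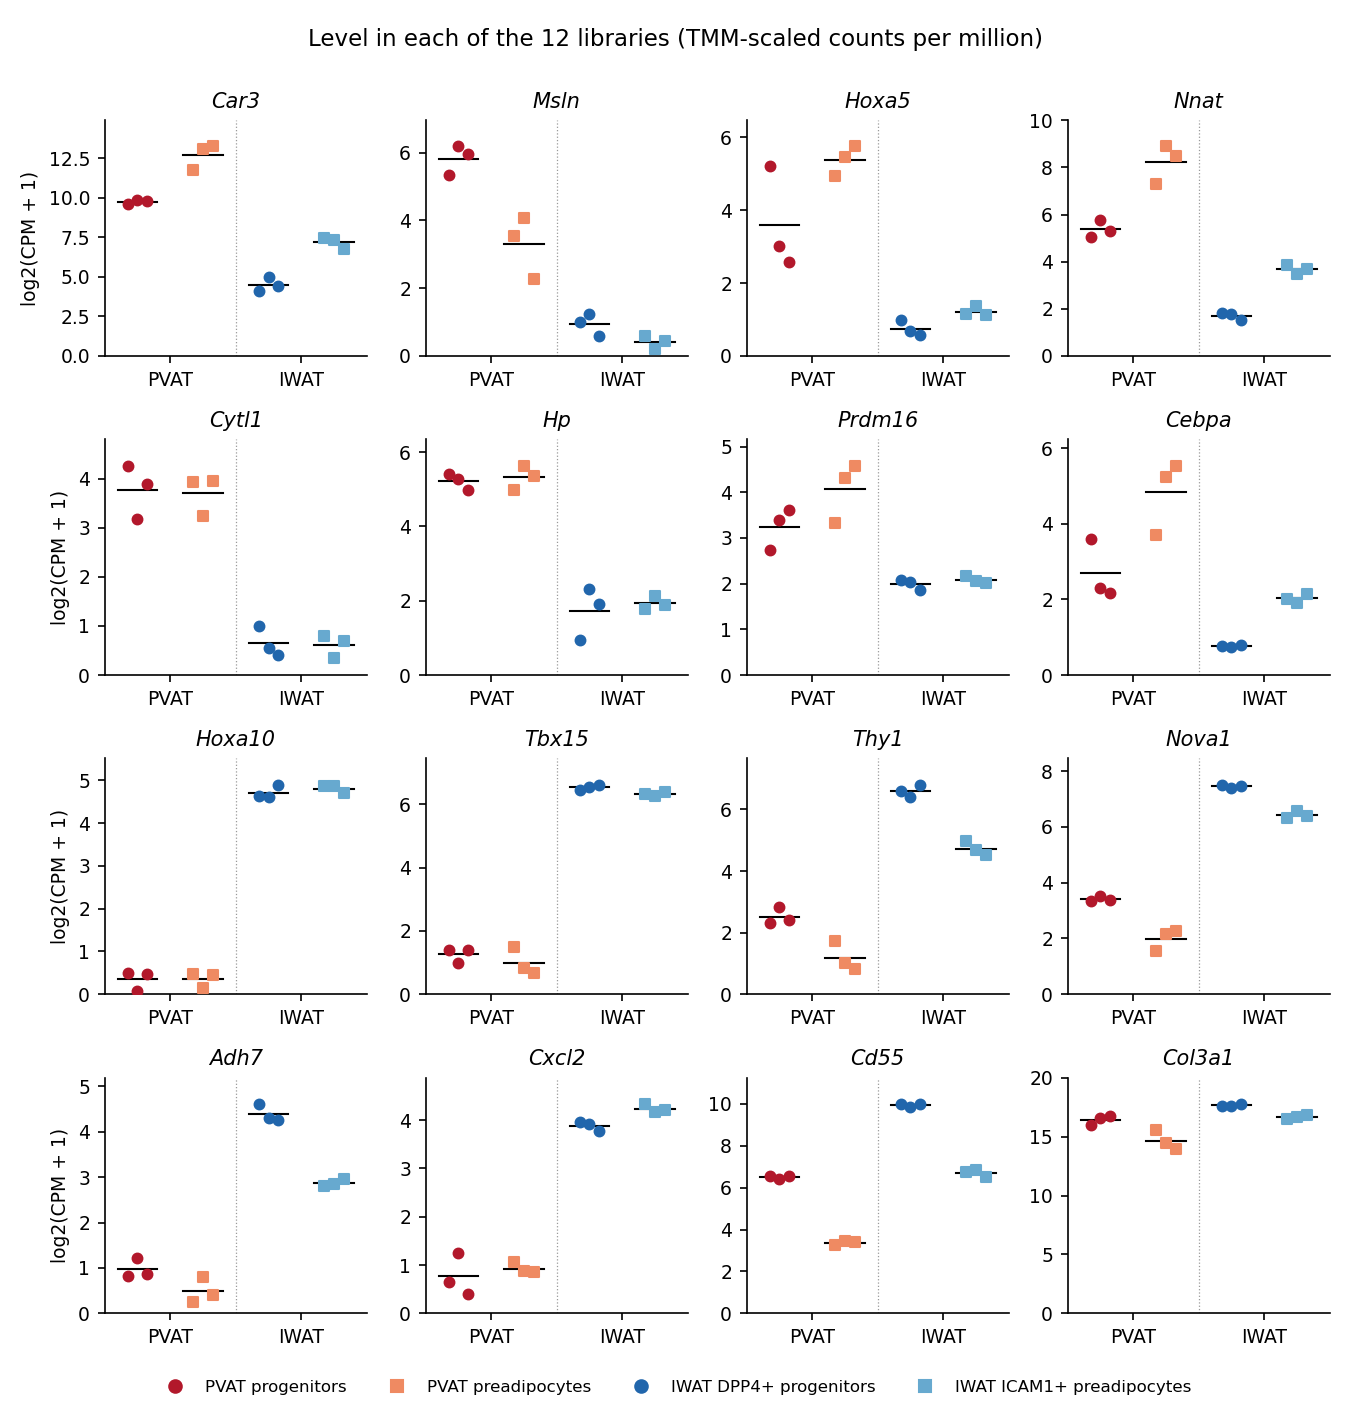
Level of 16 genes in each of the 12 libraries as log2(CPM + 1), with PVAT left of IWAT, circles for progenitors, squares for preadipocytes and bars for group means of the log values. The first 8 panels are higher in PVAT and the last 8 lower in PVAT at both stages; Cd55 and Col3a1 overlap between depots across stages.

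Prdm16, Ebf2, Cebpa and Pparg, regulators of adipogenic and thermogenic genes, were alike and higher in PVAT. Prdm16, a transcriptional regulator of brown fat, had 5.63, 9.44 and 11.2 CPM in PVAT progenitors and 8.996, 18.9 and 23.0 CPM in PVAT preadipocytes, against 3.21, 3.11 and 2.62 CPM in IWAT DPP4+ progenitors and 3.49, 3.17 and 3.03 CPM in IWAT ICAM1+ preadipocytes. All PVAT libraries were above all IWAT libraries, and the change was 1.97 ± 0.24 (adjusted p = 3.72e-05). Ebf2, a brown preadipocyte factor, had 189 to 306 CPM in PVAT and 116 to 132 CPM in IWAT (1.10 ± 0.12), again without overlap. Ebf2 headed a run of 5 alike tested genes within chr14:67233292-67430918, the other four being Gm23178, Gm6878, 1700120O09Rik and 4930438E09Rik, which lie inside the span of Ebf2. Cebpa, an adipogenic transcription factor gene, had 3.52 to 45.5 CPM in PVAT and 0.683 to 3.44 CPM in IWAT (3.23 ± 0.38). Pparg, the master regulator of adipogenesis, had 52.2, 41.7 and 40.3 CPM in PVAT progenitors and 96.2, 187 and 191 CPM in PVAT preadipocytes, against 10.3, 17.2 and 15.8 CPM in IWAT DPP4+ progenitors and 73.7, 76.1 and 69.8 CPM in IWAT ICAM1+ preadipocytes. It separated the depots at each stage but not across stages, and changed by 1.37 ± 0.18.

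Of 20 tested thermogenic genes 17 were called higher in PVAT and 2 lower, with a median log2 change of 2.43. The median was 0.93 at the progenitor and 3.59 at the preadipocyte stage, and 4 genes were alike (Dio2, Esrrg, Prdm16 and Ebf2). Ucp1 was higher at both stages and not alike: it had 3.25, 5.53 and 8.66 CPM in PVAT progenitors and 64.8, 225 and 195 CPM in PVAT preadipocytes, against 0.643, 0.228 and 0.656 CPM in IWAT DPP4+ progenitors and 0.551, 0.658 and 0.668 CPM in IWAT ICAM1+ preadipocytes. The change was 3.50 at the progenitor and 7.99 at the preadipocyte stage, and the interaction was called (adjusted p = 0.00696). Dio2, the deiodinase gene that activates thyroid hormone, differed by nearly the same amount at each stage, 3.56 and 3.69, with an averaged change of 3.63 ± 0.50 that was 4.25 without IWAT DPP4+ replicate 2. Esrrg, a nuclear receptor gene of mitochondrial metabolism, changed by 2.97 ± 0.27.

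Of 22 adipocyte and lipid droplet genes 14 were higher in PVAT and 1 lower, with a median of 1.24, and Car3 and Agpat2, an enzyme gene of triglyceride synthesis, were alike. The median of this list was -0.11 at the progenitor stage and 2.57 at the preadipocyte stage. Of 35 oxidative phosphorylation genes 33 were higher and none lower, with a median of 0.99, but none was alike; the medians at the progenitor and preadipocyte stages were 0.26 and 1.70. Adipoq, the adiponectin gene, changed by 2.22 at the progenitor and 4.78 at the preadipocyte stage. Committed preadipocyte markers gave 10 of 20 higher and 4 lower (median 0.52), with medians of 0.94 at the progenitor and -0.31 at the preadipocyte stage. Of this list Cebpa, Pparg and Fabp5 were alike. Fabp5 kept this status in 1 of the 12 fits that left out a library.

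Markers of interstitial progenitors were mostly lower in PVAT. Of 20 tested, 18 were called lower and 1 higher, with a median log2 change of -2.21, and 8 were alike. The list was drawn from inguinal and subcutaneous studies, and Dpp4 itself was used in the inguinal sort, so its values are no finding. Cd55, a complement regulator gene, had 93.8, 85.7 and 92.6 CPM in PVAT progenitors and 8.50, 9.88 and 9.66 CPM in PVAT preadipocytes, against 1029, 935 and 1018 CPM in IWAT DPP4+ progenitors and 107, 114 and 90.8 CPM in IWAT ICAM1+ preadipocytes. PVAT progenitors and IWAT preadipocytes had like levels, and progenitors were above preadipocytes in both depots. The depot change was -3.46 ± 0.10 (adjusted p = 9.55e-10), with -3.45 and -3.47 at the 2 stages. Cd55 lay in a run of 5 alike genes with Cd55b, Cd55os, Gm15675 and Gm16083 on chromosome 1. Cd55b had 1 count and Cd55os 3 counts in PVAT preadipocytes, so whether their stages were alike cannot be judged. Reads of Cd55 and its antisense gene Cd55os cannot be told apart without strand. Wnt2, a Wnt ligand gene, had 19 to 23.4 CPM in PVAT progenitors and 1.66 to 2.51 CPM in PVAT preadipocytes, against 353 to 425 CPM in IWAT DPP4+ progenitors and 20.6 to 27.6 CPM in IWAT ICAM1+ preadipocytes (-3.91 ± 0.14). Efhd1, a calcium-binding mitochondrial protein gene, changed by -3.73 ± 0.13. Pi16, another marker of these progenitors, did not pass the averaged test (-0.41 ± 0.29, adjusted p = 0.261), with -1.85 at the progenitor and 1.04 at the preadipocyte stage; without PVAT preadipocyte replicate 1 it was called, at -0.89.

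Cell cycle genes were higher in PVAT. Of 28 tested, 28 were called higher, with a median log2 change of 1.90, and 19 were alike. In 23 all PVAT libraries were above all IWAT libraries. Over all tested genes 26.2% were called higher and 3.25% were alike and higher, and 13.4% separated fully in either direction. Ccnb1, the mitotic cyclin B1 gene, had 96.0, 92.5 and 99.9 CPM in PVAT progenitors and 172, 250 and 292 CPM in PVAT preadipocytes, against 11.3, 11.4 and 9.51 CPM in IWAT DPP4+ progenitors and 46.1, 44.5 and 33.2 CPM in IWAT ICAM1+ preadipocytes. PVAT progenitors exceeded IWAT preadipocytes, and the change was 2.84 ± 0.15 (adjusted p = 2.47e-08). Rrm2, a subunit gene of ribonucleotide reductase, changed by 2.56 ± 0.16, Birc5, a mitotic survivin gene, by 2.60 ± 0.21, and Ccna2, the cyclin A2 gene, by 2.85 ± 0.29. The summed level of the list was 1498 to 1632 CPM in PVAT progenitors and 2648 to 3796 CPM in PVAT preadipocytes, against 384.6 to 459.7 CPM in IWAT DPP4+ progenitors and 1060 to 1116 CPM in IWAT ICAM1+ preadipocytes. Hmgb2, a chromatin protein gene of dividing cells, was among the 5 most abundant alike genes that were higher in PVAT, at 136 to 737 CPM in PVAT and 45.03 to 130 CPM in IWAT (1.93 ± 0.18). The mitotic kinase gene Haspin and the kinetochore gene Cenpk were among the genes with a change of at least 2 whose stages lay closest, with 3.12 and 3.10 for Haspin and 2.12 and 2.10 for Cenpk.

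More fibrillar and elastic matrix genes were lower than higher in PVAT. Of 31 fibrillar and elastic matrix genes 20 were lower and 7 higher (median -0.89), with 9 alike on the lower side and Fbln1 on the higher side; with library totals 17 were lower and 8 higher. Fn1, the fibronectin gene, had 1423, 3159 and 2939 CPM in PVAT progenitors and 796, 420 and 325 CPM in PVAT preadipocytes, against 17840, 19310 and 17290 CPM in IWAT DPP4+ progenitors and 3136, 3585 and 4332 CPM in IWAT ICAM1+ preadipocytes. The depots separated at each stage and overlapped across stages, and the change was -2.85 ± 0.26 (adjusted p = 3.25e-06). Col3a1 had 16120 to 110300 CPM in PVAT and 95030 to 227600 CPM in IWAT (-1.53 ± 0.28), and was alike in 1 of the 12 fits that left out a library. Tnxb, a tenascin gene of elastic connective tissue, fell by 2.65 on the log2 scale (SE 0.11), at 128 to 572 CPM in PVAT and 1135 to 2590 CPM in IWAT. Fbln1, the fibulin-1 gene, had 174 to 792 CPM in PVAT and 66.98 to 173 CPM in IWAT (1.77 ± 0.26).

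Of 24 basement membrane genes 10 were lower and 4 higher (median -0.52), with 6 alike on the lower side. Nid1, which encodes a linker of laminin and collagen IV, changed by -1.77 ± 0.23. Of 20 small proteoglycan and hyaluronan genes 10 were lower and 5 higher (median -0.71). Has2, a hyaluronan synthase gene, had 9.33 to 25.7 CPM in PVAT and 94.0 to 145 CPM in IWAT (-2.84 ± 0.13), and formed a run with its antisense gene Has2os and with Zhx2 on chromosome 15; reads of Has2 and Has2os cannot be told apart without strand. Tnfaip6, a hyaluronan-binding protein gene, changed by -3.79 ± 0.13, and Ugdh, whose enzyme makes the sugar precursor of hyaluronan, by -2.02 ± 0.10 with near-equal steps of -2.02 and -2.03 at the 2 stages. Hmmr, the hyaluronan-mediated motility receptor gene, which also acts at the mitotic spindle, was the alike gene of this list that was higher in PVAT (2.39 ± 0.20). Of 25 MMP, ADAMTS and TIMP genes 11 were lower and 3 higher (median -0.31), and of 33 integrin and cadherin genes 14 were lower and 5 higher (median -0.27). The lower medians of these lists came from the preadipocyte stage. At the progenitor and preadipocyte stages they were 0.30 and -1.43 for basement membrane genes. They were -0.02 and -1.10 for small proteoglycan and hyaluronan genes. MMP, ADAMTS and TIMP genes had 0.33 and -0.83, and integrin and cadherin genes 0.05 and -0.35. With library totals as the scale the balance of these lists was nearer to even: 9 lower and 8 higher for small proteoglycan and hyaluronan genes, 6 and 4 for MMP, ADAMTS and TIMP genes (median 0.01), 12 and 11 for integrin and cadherin genes (median 0.06), and 10 and 5 for basement membrane genes.

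**Figure D4:**
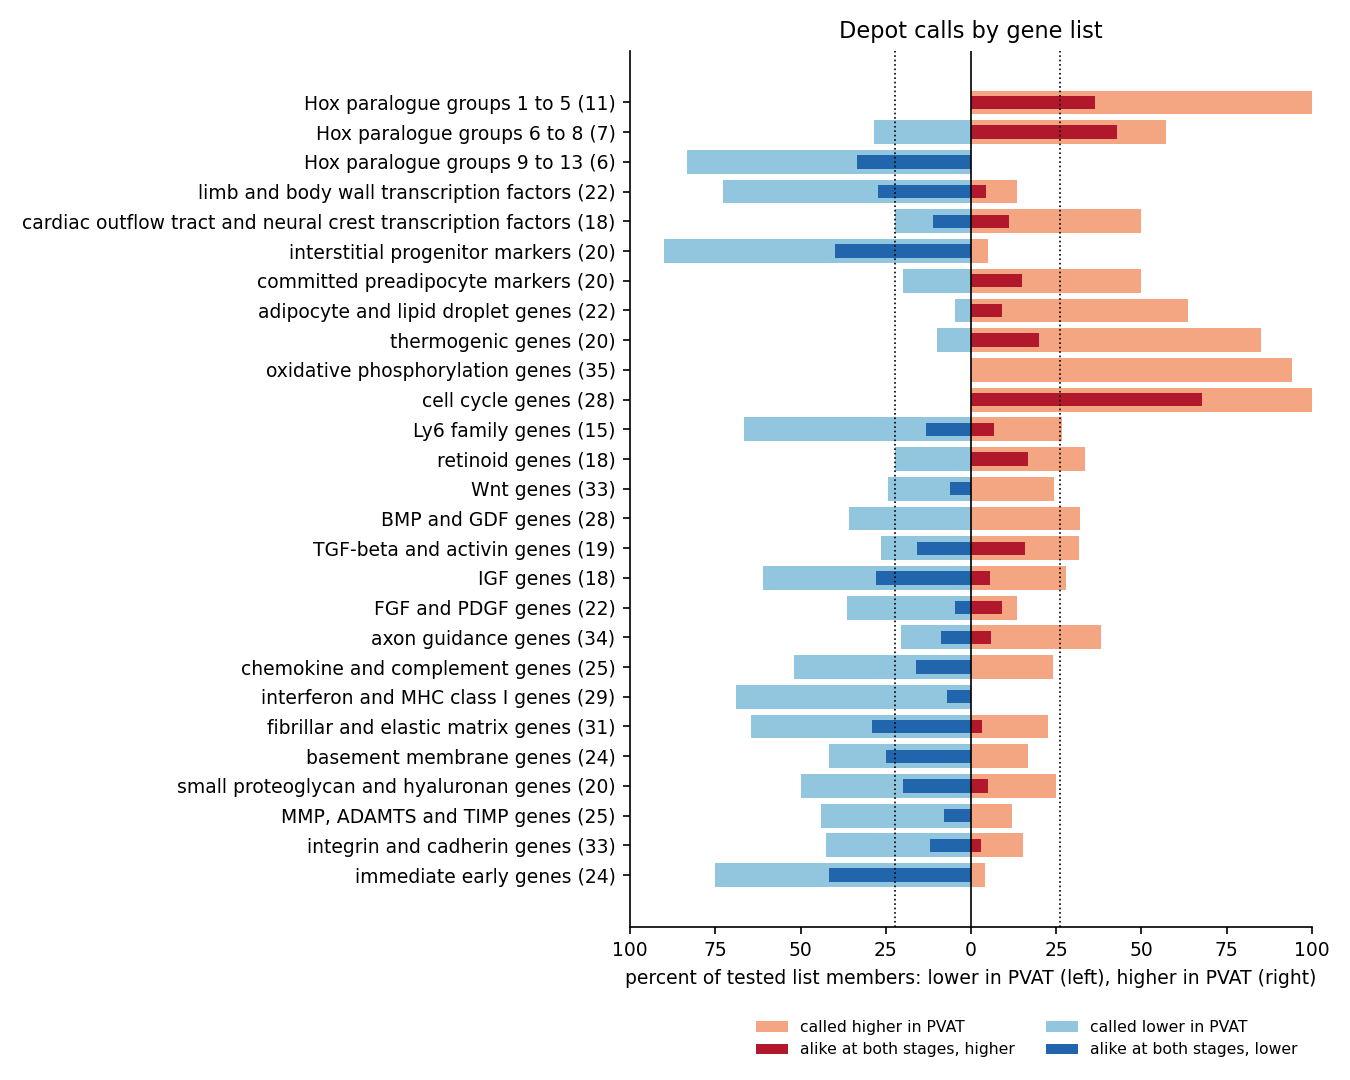
Percent of the tested members of each gene list (number tested in parentheses) called lower in PVAT (left) and higher in PVAT (right), with the narrow dark bars for members alike at both stages. Dotted lines mark the 22.3% lower and 26.2% higher among all tested genes; cell cycle and Hox groups 1 to 5 lie wholly to the right, and oxidative phosphorylation has no dark bar.

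Signalling lists held members called in both directions, beside 26.2% higher and 22.3% lower among all tested genes; the Wnt, TGF-beta and activin, and retinoid lists lay near these shares. Of 18 insulin-like growth factor genes 11 were lower and 5 higher (median -0.44). The median of this list was -0.08 at the progenitor and -0.88 at the preadipocyte stage. Igfbp6, a binding protein gene with preference for IGF2, had 23.6 to 170 CPM in PVAT and 207 to 1294 CPM in IWAT (-3.01 ± 0.14). H19, an imprinted noncoding RNA next to Igf2, changed by -2.0 ± 0.17, and Irs1, an insulin receptor substrate gene, by -1.90 ± 0.21. Igfbp2, another binding protein gene, was higher in PVAT by 3.56 ± 0.55, and by 2.64 without PVAT progenitor replicate 1. It was alike in 10 of the 12 fits that left out a library. Of 19 TGF-beta and activin genes 6 were higher and 5 lower. Ltbp2, a latent TGF-beta binding protein gene of elastic fibres, changed by 2.87 ± 0.32, while the receptor gene Tgfbr2 changed by -1.97 ± 0.24 and the ligand gene Tgfb1 by -1.51 ± 0.14.

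Of 18 retinoid genes 6 were higher and 4 lower, and 3 were alike, all higher in PVAT. Crabp1, a cellular retinoic acid binding protein gene, had 6.49 to 13.2 CPM in PVAT and 1.72 to 2.71 CPM in IWAT (2.14 ± 0.20). Rarb, a retinoic acid receptor gene and itself a target of retinoic acid, changed by 1.85 ± 0.20, with 38.4% of its exon length overlapping Top2b. Rbp4, the plasma retinol carrier gene, changed by 1.21 ± 0.15. Rxrg, a retinoid X receptor gene, changed by 2.72 and 2.71 at the 2 stages. Of 22 FGF and PDGF genes 3 were higher and 8 lower; the receptor gene Fgfr2 changed by 1.69 ± 0.25 and the feedback inhibitor gene Spry2 by -1.36 ± 0.18. Of 33 Wnt genes 8 were higher and 8 lower, and of 28 BMP and GDF genes 9 were higher and 10 lower with none alike. Of 34 axon guidance genes 13 were higher and 7 lower. The balance of these lists depended on the scale: with library totals 6 FGF and PDGF genes were higher and 4 lower (median 0.10, against -0.23 with TMM), 14 and 5 Wnt genes, 11 and 7 BMP and GDF genes, 11 and 3 retinoid genes, 20 and 6 axon guidance genes, 8 and 5 TGF-beta and activin genes, and 6 and 8 insulin-like growth factor genes. The ligand gene Slit2 was higher in PVAT (1.86 ± 0.29) and its receptor gene Robo2 lower, with near-equal changes of -2.09 and -2.08 at the 2 stages.

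Immediate early and heat shock genes, which tissue dissociation is known to induce, were mostly lower in PVAT. Of 24 tested, 18 were called lower and 1 higher, with a median log2 change of -1.44, and 10 were alike. Atf3, a stress-induced transcription factor gene, had 65.9 to 108 CPM in PVAT and 337 to 474 CPM in IWAT (-2.26 ± 0.10). The heat shock genes Hspa1a and Hspa1b changed by -3.69 ± 0.13 and -3.51 ± 0.14; they are near-identical copies, so the split of reads between them is uncertain. The summed level of the list was 4220 to 7049 CPM in PVAT progenitors and 4020 to 6789 CPM in PVAT preadipocytes, against 8157 to 9498 CPM in IWAT DPP4+ progenitors and 10700 to 11890 CPM in IWAT ICAM1+ preadipocytes. The part of handling in the other depot differences was not tested.

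More immune signalling genes were lower than higher in PVAT. Of 29 interferon and MHC class I genes 20 were lower and none higher (median -0.69), and of 25 chemokine and complement genes 13 were lower and 6 higher (median -0.66). With library totals these counts were 10 lower and 4 higher for interferon and MHC class I genes (median -0.37) and 10 lower and 7 higher for chemokine and complement genes (median -0.34). The TMM medians at the progenitor and preadipocyte stages were -0.39 and -1.11 for interferon and MHC class I genes. For chemokine and complement genes they were 0.16 and -1.84. Cxcl2, a neutrophil chemokine gene, had 0.325 to 1.38 CPM in PVAT and 12.7 to 19.2 CPM in IWAT (-4.24 ± 0.26). Cxcl10, a chemokine gene induced by interferon, had 0.757 to 1.77 CPM in PVAT and 10.2 to 25.1 CPM in IWAT (-3.65 ± 0.16). Neither overlapped between depots. H2-K1 and H2-D1, which encode classical MHC class I chains, changed by -1.16 ± 0.12 and -1.36 ± 0.12; reads of these similar genes may be shared. Of 15 Ly6 family genes 10 were lower and 4 higher. Ly6a, the gene of the surface antigen Sca-1, was lower at both stages by unequal amounts, -2.20 and -7.65.

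Some lists of markers of other cell types also differed between depots. Among all tested genes 26.2% were called higher and 22.3% lower, or 48.6% either way. The smooth muscle, endothelial, and cartilage and tendon lists had shares called either way near 48.6%. Of 14 haematopoietic markers 10 were lower in PVAT and none higher. Their summed level was 28.29 to 78.91 CPM in PVAT progenitors and 36.71 to 57.81 CPM in PVAT preadipocytes, against 65.97 to 234.8 CPM in IWAT DPP4+ progenitors and 67.23 to 79.11 CPM in IWAT ICAM1+ preadipocytes. Of 7 tested mast cell markers 6 were lower, with a summed level of 9.432 to 25.99 CPM in PVAT and 71.7 to 332.0 CPM in IWAT. Of 11 Schwann and neural markers 6 were lower and 3 higher. The sums were 22.11 to 38.72 CPM in PVAT and 89.69 to 225.6 CPM in IWAT, and Mbp and Erbb3 were among the alike genes. Of 12 keratinocyte and epithelial markers 7 were lower and 2 higher, with sums of 22.08 to 36.13 CPM in PVAT, 330.6 to 437.1 CPM in IWAT DPP4+ progenitors and 43.5 to 47.7 CPM in IWAT ICAM1+ preadipocytes. The highest Krtdap level, given above, was close to the highest of these sums, so the IWAT DPP4+ sum was mostly this gene. Of 12 endothelial markers 5 were lower and 1 higher. Other lists had more members higher than lower. Of 9 tested skeletal and cardiac muscle markers 5 were higher in PVAT and 1 lower, with a median of 3.47; their summed level was 28.24 to 29.17 CPM in PVAT progenitors and 27.92 to 166.9 CPM in PVAT preadipocytes, against 29.83 to 38.72 CPM in IWAT DPP4+ progenitors and 37.69 to 42.8 CPM in IWAT ICAM1+ preadipocytes, so the sums overlapped between depots. Of 11 cartilage and tendon markers 5 were higher and 1 lower, with sums of 28.89 to 54.53 CPM in PVAT progenitors and at least 93.62 CPM in each PVAT preadipocyte library, against 35.79 to 58.43 CPM in IWAT DPP4+ progenitors and 39.93 to 46.87 CPM in IWAT ICAM1+ preadipocytes. Of 12 smooth muscle markers 4 were higher and 2 lower. Th, the tyrosine hydroxylase gene of noradrenergic neurons, was at 0 in all IWAT libraries and was named for that reason; no other marker of these lists was at 0 in all libraries of a depot. The part of such cells in the depot differences was not tested. The 5 sex chromosome genes gave no call.

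Some genes were called at both stages in opposite directions and so offset each other in the average. Col15a1, a basement membrane collagen gene, changed by 3.93 at the progenitor and -1.74 at the preadipocyte stage, with an average of 1.09. Igf1, a growth factor gene, changed by 2.49 and -0.40, Bmper, a BMP-binding protein gene, by 2.51 and -0.75, Bmp4, a BMP ligand gene, by -2.39 and 1.11, and Thbs4, a thrombospondin gene, by -4.11 and 1.33. The averaged call of these 5 genes was lost when the model had no interaction term, with adjusted p between 0.0862 and 0.502.

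Near the limits of the rule the values differed little. The genes just inside the size limit were Ogfod3, Klhl32 and Lasp1 and those just outside were Lmna, Il10rb and Gm15708, all at 1.0 in size after rounding. Just inside the limit on the stage difference were Nkain3, Ect2 and Srrm4, and just outside Aifm1, Irf9 and C1qb. Among alike genes, 218 (16.1%) had a neighbouring tested gene alike in the same direction, and 13 runs of at least 3 were found. The share to be expected without clustering was not computed, so these counts do not show clustering. Beside those above, the runs included Arxes2, Arxes1 and Bex2 on the X chromosome, higher in PVAT, and P2ry10, P2ry10b and Itm2a, lower. Msln, Tnfaip6, H19 and Bex2 kept their alike status in 8 of the 12 fits that left out a library, and P2ry10 in 7. Overlapping annotations share reads in several of these runs.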

How the data were processed

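RNA of 12 sorted cell populations was sequenced. Per the submitters' processing notes, the tools were STAR 2.5.2a and DESeq2 1.26.0 with the mm10 genome; which tool, annotation and strand setting made the counts is not given in the sources used here. As input, the authors deposited raw counts per gene, which were used as deposited, together with normalised and regularised log values, which were not used. Columns were assigned to samples by name, with 0 columns left over. Of 31099 genes, 20387 had a symbol in the table, 10687 received one from a gene name table and 31074 had coordinates in GENCODE M21.

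Counts were fitted with edgeR 4.0.16 under R 4.3.3 (filterByExpr with a minimum count of 10, TMM, 1 mean per group, glmQLFit and glmQLFTest, two-sided), with Benjamini-Hochberg adjustment over 18855 genes and calls under 0.05. The scripts were tested on simulated data. DESeq2 1.42.0, limma 3.58.1 (voom), other scales, filters, rule limits and left-out libraries were alternatives. Depth was 15614628 to 25674461 counts per library, and counting intervals cover counting error only.

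Same-numbered replicates came from the same pools of mice, per the labels' protocols, so the numbers pair the libraries. Deviations from group means correlated from -0.213 to 0.153 over 18 same-number pairs. Over 36 pairs of different number they correlated from -0.197 to 0.273, and the median was 0.009 for both kinds of pair. The main fit had no replicate block because no stated method uses one.

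The members and gene lists were chosen with earlier results of these data known. Named genes are from among the alike genes with at least 10 CPM in the higher depot and a named symbol: the 10 highest and 10 lowest changes, the 5 most abundant and, at a change of at least 2, the 3 closest between stages per direction. To these were added up to 4 alike genes per list, list members called in opposite directions, 12 fixed genes (Dpp4, Icam1, Pdgfra, Ucp1, Prdm16, Ebf2, Pparg, Cebpa, Adipoq, Pi16, Cd55 and Ly6a), Hox genes, runs of at least 3 neighbouring alike genes, and the 3 genes on each side of each limit. The text names some of these; some genes are not reported here.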

Additional observations from a re-analysis of the deposited data

Results flagged for a closer look

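For 25 of the genes named, the depot change differed between stages by the interaction test (edgeR's quasi-likelihood test, adjusted p under 0.05). The values are the log2 depot change in preadipocytes minus that in progenitors. A positive value with a depot increase means a larger increase in preadipocytes.

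Among Hox genes the difference was -3.10 for Hoxa2, -2.27 for Hoxa3, 0.88 for Hoxa7, -1.12 for Hoxc6 and 2.72 for Hoxc9. Among fat and progenitor genes it was 4.49 for Ucp1, 2.56 for Adipoq, -2.10 for Pdgfra, 2.89 for Pi16 and -5.46 for Ly6a. For the sort genes it was 1.42 for Dpp4 and -4.29 for Icam1.

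The genes called in opposite directions had differences of -5.67 for Col15a1, -2.89 for Igf1, 3.50 for Bmp4, -3.27 for Bmper and 5.45 for Thbs4. Of the genes named, Hoxa7, given above, was alike by the size limit with a called interaction, as were Tnxb (-0.81), Tnfaip6 (-0.97), Atf3 (-0.79), Knl1 (-0.93) and Ect2 (-1.0). Outside a limit of the rule were Lmna (-0.90), Aifm1 (1.0) and Irf9 (-1.0).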

How the results depend on the processing

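With library totals as the scale, 8255 genes were called higher in PVAT and 2422 lower, and 1432 and 416 were alike at both stages, of which 561 and 398 were alike with TMM too. A stage difference under 0.5 left 338 higher and 430 lower alike genes, an averaged change of at least 2 left 217 and 229, and no limit on the averaged change gave 1132 lower. With the replicate block, the pairing of pools left 4507 higher and 4054 lower calls and 564 and 714 alike genes; it changed no call of a named gene. DESeq2 called 4864 higher and 4639 lower and limma-voom 5987 and 5393. Leaving out 1 library gave 4216 to 5103 higher and 3724 to 5016 lower calls, and 496 to 591 higher and 640 to 824 lower alike genes. Of the alike genes, 289 higher and 406 lower stayed alike whichever library was left out, and 257 and 247 under all 20 fits compared. Over 138 named genes and 21 settings, 2886 values were compared. Some genes with few counts, such as Hoxb2, Pitx1, Lmx1b and Pax9, had no value at a minimum count of 50. No direction reversed, 8 values lost their call (Bmp4 in 2 settings) and 4 gained one (Pi16 in 3, Hoxc8 in 1). The cause was not tested. Genes with few PVAT counts, such as Pitx1 and Hoxc10, are limited by depth.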
